A study of Mus musculus with 12 samples.

Results

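The regions described here are wide merged regions that held a peak in every one of 12 ATAC-seq libraries from mouse dentate gyrus. Their width is that of all peaks joined, not of a stretch open in every library. Peaks of all 12 libraries on chromosomes 1 to 19 and X were joined wherever they shared at least 1 bp, which gave 170710 merged regions. Of these, 9037 held a peak in all 12 libraries and are called shared regions below. The 1684 shared regions with a merged width of 2000 bp or more were selected on those 2 values, presence in every list and width, and are called broad shared regions. They were 18.6% of the shared regions and 0.986% of all merged regions. The other 7353 shared regions, all under 2000 bp, serve as the nearest comparison and are called narrower shared regions.

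The libraries form 3 groups, E0, E1 and E4, of 4 replicates each. Every library came from the microdissected dentate gyrus of 1 adult C57BL/6 mouse, 8 weeks old, and no allele or transgene is named. The labels do not say what the group names stand for. In the published study, known here apart from the labels, E0 marks mice before, E1 mice 1 h after and E4 mice 4 h after electroconvulsive stimulation, which fires granule neurons together.

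ATAC-seq uses a transposase that cuts and tags DNA where nucleosomes leave it exposed, so that a peak marks a nucleosome-poor stretch. Most such stretches are short, the footprint of 1 regulatory element, while broad ones are known from promoters of highly transcribed genes, clusters of enhancers and repeated sequence. The dentate gyrus consists mainly of granule neurons beside glia and interneurons. In a bulk sample, fewer cells in which a region is open and less opening per cell cannot be told apart. The coordinates are those of the mm9 genome build, counted from 1. No mm9 gene annotation was used, so regions are named by position, are not assigned to genes, exons or promoters, and the labelled tissue was not checked against marker genes.

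The length of the peak lists differed widely between libraries and moves with several results below. Lists held 36861 to 77130 peaks in E0, 64152 to 84776 in E1 and 24426 to 104120 in E4, where replicate 1 had the longest list of the series and replicates 2 to 4 held 34863, 24426 and 31742. No read counts come with the peaks, and the depth behind each is therefore unknown. Each peak carries a score set by the authors. The labels do not state its scale, and scores were compared by rank only. Within a list, a peak's percentile is the share of the list's peaks that scored lower, with ties given their middle rank.

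The broad shared regions had a median merged width of 2432 bp, with quartiles at 2173 and 2903 bp. A width of 2500 bp or more was reached by 749 of them, 3000 bp by 369, 4000 bp by 115 and 5000 bp by 28. Together they spanned 4.51 Mb, 5.04% of the length of all merged regions. The narrower shared regions had a median width of 1259 bp and all merged regions one of 399 bp. Merged width is a union over lists and can grow with each list that adds a peak, so width and presence are tied by the merging itself. Of the 2510 merged regions of 2000 bp or more, 67.1% held a peak in all 12 libraries, against 4.37% of those under 2000 bp. Of the remaining 826 broad regions, 377 lacked a peak in a single library and 80 had one in 6 libraries or fewer.

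**Figure D1:**
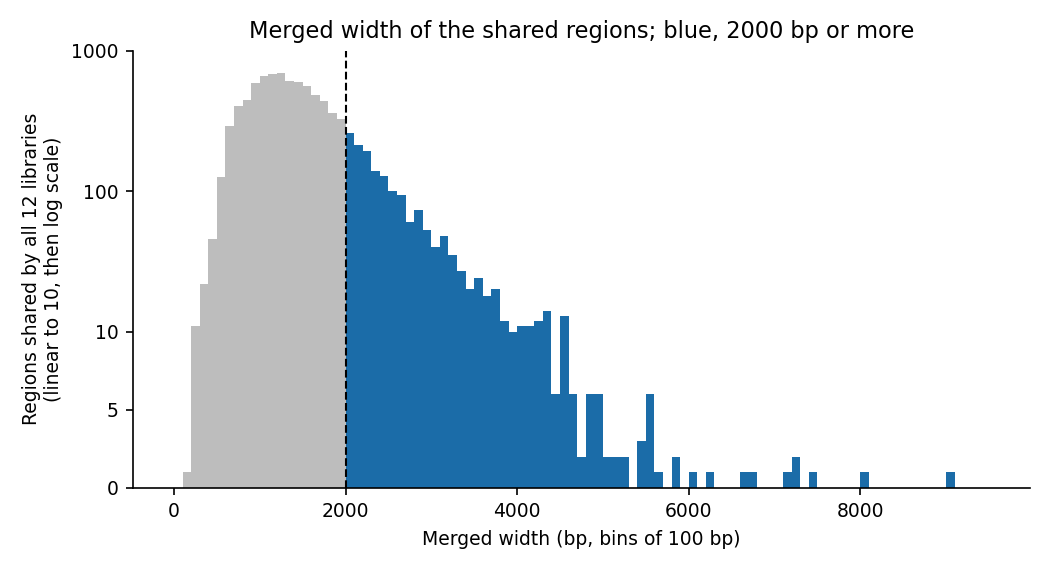
Merged width in bins of 100 bp (x axis) against the number of shared regions per bin (y axis, linear to 10 and then on a log scale). Widths run without a gap across the 2000 bp line that separates the 7353 narrower (grey) from the 1684 broad regions (blue), up to 9077 bp.

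The threshold of 2000 bp cut through a continuous range of widths. Just inside it lay chr1:52653886-52655885 and chr6:147039276-147041275, both 2000 bp wide, and chr11:23670024-23672024, 2001 bp wide. Just outside lay chr5:141123513-141125511 and chr6:128748218-128750216, both of 1999 bp, and chr10:79861249-79863246, of 1998 bp. The mean percentile over the 12 lists was 75.4, 76.2 and 98.2 for the 3 regions just inside and 83.4, 96.2 and 97.4 for the 3 just outside.

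The widest broad shared region was chr9:2999954-3009030, 9077 bp, which began at the leftmost peak of chromosome 9 in any list. Its peaks covered 5510, 5488, 3261 and 5372 bp in E0, 5453, 5524, 5403 and 5522 bp in E1, and 9067, 8167, 5392 and 8285 bp in E4. The percentile of its highest peak score was 99.89 to 99.98 in 11 lists and 26.4 in E4 replicate 1, where a single peak covered 9067 bp. The next in width were chr14:71021957-71029978 (8022 bp), chr13:78336552-78344044 (7493 bp), chr14:106291566-106298814 (7249 bp) and chr12:15817563-15824774 (7212 bp).

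The share of the merged width under peaks differed between lists, from a median of 22.7% in E4 replicate 3 to 96.7% in E4 replicate 1. At chr14:71021957-71029978, no base lay under a peak in all 12 libraries, and the length under peaks ran from 563 bp in E4 replicate 3 to 7102 bp in E1 replicate 2. At chr13:78336552-78344044, peaks covered 4404, 4568, 1897 and 2390 bp in E0 and 2197, 4134, 2133 and 2140 bp in E1. In E4 they covered 7493 bp in replicate 1 and 1485, 283 and 1312 bp in replicates 2 to 4, so that the merged width of this region was set by a single library.

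Over all broad shared regions, the core, meaning the bases under a peak in all 12 libraries, had a median length of 389 bp, or 15.3% of the merged width. The core ran from 0 to 97.4% of the width. It was absent in 179 regions, in which the lists never met over a single base, and fell into 2, 3 or 4 separate stretches in 252, 43 and 8 regions. Of the broad regions, 18.0% had 2 or more core stretches and 10.6% none. The values were 6.83% and 5.66% for the narrower shared regions, whose median core was 243 bp or 20.9% of the width. The bases under the most libraries lay in the central 50% of the width in 80.5% of the broad and 95.6% of the narrower regions.

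Core length barely moved with width. Regions of 2000 to 2499 bp had a median core of 388 bp, those of 2500 to 2999 bp 400.5 bp, those of 3000 to 3999 bp 371 bp and those of 4000 bp or more 422 bp. The core share of the width fell over the same bins from 17.6% to 14.7%, 11.2% and 7.86%. Asking for 2000 bp under peaks of at least 2 libraries left 1057 of the 1684 regions. Asking for at least 6 libraries left 178, and for all 12 libraries 4.

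**Figure D2:**
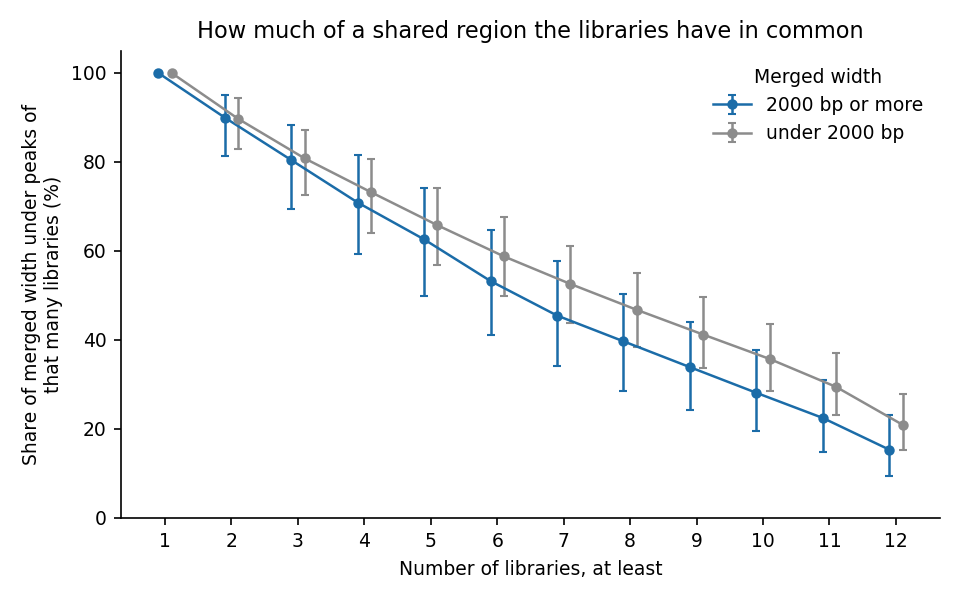
Share of a region's merged width (y axis, %) that lay under peaks of at least the given number of libraries (x axis), for broad (blue) and narrower (grey) shared regions; points are medians and bars quartiles over regions. The median of the broad regions falls to 53.2% at 6 libraries and 15.3% at 12, that of the narrower ones to 58.8% and 20.9%.

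One library contributed more to the merged width than any other. E4 replicate 1, with the longest list, was alone in covering 9.41% of the summed width of the broad regions, of 13.9% covered by a single library in all. It gave the most covered base pairs in 1104 of the 1684 regions and a single peak of 2000 bp or more in 1290. The other E4 libraries had 5 to 13 such peaks, the E0 libraries 11 to 654 and the E1 libraries 33 to 687. Without E4 replicate 1, the same rule over 11 libraries found 1204 broad regions, and 1199 of the 1684 (71.2%) overlapped one of them. Over the other 11 omissions that overlap was 92.0% to 100%.

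The length under peaks in a broad shared region followed the same order. Its median was 1612, 1921, 882.5 and 1073 bp in E0, 1792.5, 1968, 1173 and 1020 bp in E1, and 2275.5, 886, 576.5 and 717 bp in E4. The groups overlapped throughout, and the spread within E4, from 576.5 to 2275.5 bp, held the values of all E0 and E1 libraries. All 4 lists of a group met over a median of 764 bp in E0, 861 bp in E1 and 428 bp in E4. Broad regions were split into 2 or more peaks in 8.25% (E4 replicate 1) to 35.2% (E1 replicate 4) of cases, and exceeded the narrower regions in this share in 12 of 12 libraries. A wider region has more room for several peaks, so this difference is not independent of the selection by width.

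The selection did not use peak scores directly. Each list ends at a lowest score, however, so presence in all 12 lists is tied to score. A high placement is therefore not independent of the selection. By score, the broad shared regions lay high in every list. The median percentile of their highest peak was 94.6, 95.4, 90.9 and 92.8 in E0, 95.1, 94.7, 93.5 and 92.8 in E1, and 96.2, 88.7, 84.6 and 88.5 in E4. The group means were 93.4 ± 2.0, 94.0 ± 1.1 and 89.5 ± 4.9 (SD, n = 4 each). E4 replicates 2 to 4, with the shortest lists, had the 3 lowest values, and E4 replicate 1 the highest. The broad regions lay above the narrower ones in 12 of 12 libraries, where the narrower regions had medians from 76.1 (E4 replicate 3) to 94.6 (E4 replicate 1). A wider region offers more peaks to take the highest score from, and the part of this in the difference was not tested.

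**Figure D3:**
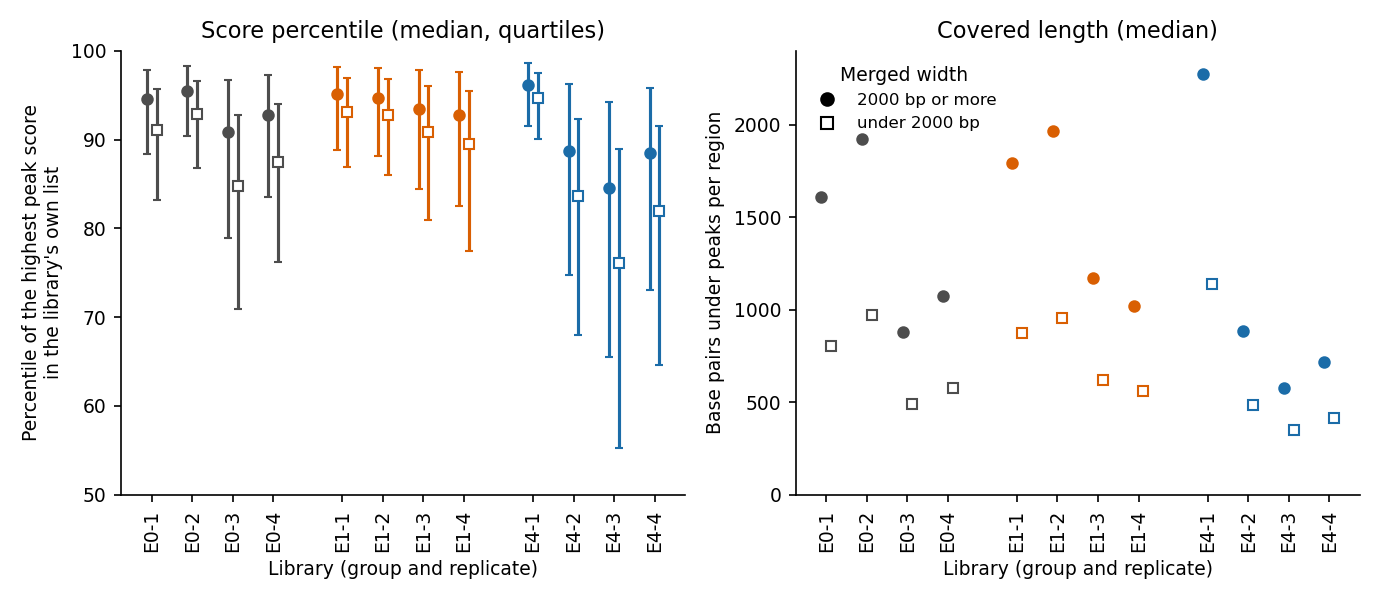
Left, percentile of the highest peak score within each library's own list (y axis, starting at 50) with quartiles; right, median base pairs under peaks per region; filled circles are broad and open squares narrower shared regions, for the 12 libraries of E0 (grey), E1 (orange) and E4 (blue). The broad regions lie above the narrower ones in all 12 libraries in the left panel; their greater covered length in the right panel follows from the selection by width, and E4 replicate 1 stands apart from E4 replicates 2 to 4.

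Of the broad regions, 424 (25.2%) lay at or above the 90th percentile of all 12 lists, against 10.6% of the narrower ones. Conversely, 463 (27.5%) fell below the middle of at least 1 list, against 41.7% of the narrower ones, and E4 replicate 3 held the lowest percentile of 623 broad regions. When every list was reduced to the 24426 highest scores, the length of the shortest, 1348 of the 1684 (80.0%) still had a peak in each list, against 71.1% of the narrower regions. Among the broad regions themselves, the wider ones ranked lower. The median of the mean percentile was 91.9 for 2000 to 2499 bp, 91.8 for 2500 to 2999 bp, 86.3 for 3000 to 3999 bp and 85.0 for 4000 bp or more. Spearman's rho between width and percentile over the 1684 regions of a library ran from -0.25 in E4 replicate 1 to -0.04 in E4 replicate 3, and all points of a library share its list.

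The 3 broad regions with the highest mean percentile had nearly the same covered length in every library. At chr1:24618325-24623243, 4919 bp, peaks covered between 4726 and 4914 bp in the 12 libraries and the core took up 96.1% of the width. At chr17:39979894-39985950, 6057 bp, they covered 5901 to 6045 bp, with a core of 97.4%, the largest share of any broad region. At chr2:22442612-22446105, 3494 bp, they covered 3088 to 3494 bp, with a core of 88.4%. The lowest percentile of any of these 3 in any list was 99.94. The highest peak score at chr1:24618325-24623243 was exactly 3100 in all 12 libraries. At chr2:22442612-22446105 it was 3100 in all but E4 replicate 2, which had 3091.85. Ranks tied at such a repeated value do not show equal signal, and whether the score is capped there was not tested. Next came chr14:120876026-120878642 and chr1:152239039-152241239, with lowest percentiles of 99.86 and 99.85 and cores of 49.1% and 50.5%. Their covered length varied more, from 1284 to 2617 bp and from 1112 to 2188 bp. Whether these DNA segments occur more than once in the genome was not tested.

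At the other end, chr3:108003154-108005347 had the lowest mean percentile, 28.4. Its percentiles were 40.2, 55.3, 1.3 and 10.2 in E0, 32.8, 26.8, 45.8 and 16.8 in E1, and 18.1, 63.6, 7.0 and 22.6 in E4. The groups overlapped and the range within each was wide. The next lowest means were 41.8 at chr11:59988860-59991293, 43.7 at chrX:120115304-120118015, 47.1 at chr1:140737027-140740531 and 47.6 at chr3:53958818-53961727. None of these 4 regions had a core base.

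The percentile of a broad region differed by a median of 21.9 points between its highest and its lowest library. The corresponding median for the narrower regions was 36.7. At 2 of the 5 regions with the widest range, 1 library lay apart from the other 11. At chr5:20560075-20562712 the percentile was 94.3 or more in 11 lists and 1.5 in E4 replicate 3, where its peak covered 255 bp against 848 to 2625 bp elsewhere. At chr6:47687091-47691350 it was 75.2 or more in 11 lists and 2.2 in E4 replicate 1, where its peak was the longest of the 12, at 4253 bp. The other 3 regions had no such single library, and their percentiles were spread out. At chr2:60799986-60802323 the percentile was 3.3 in E0 replicate 3 and 7.8 in E4 replicate 4, and at chr18:64424287-64426741 it was 0.95 in E4 replicate 4 and 30.9 in E4 replicate 3. At chr9:72378907-72381256 it was 1.1 in E4 replicate 3 and 41.2 in E1 replicate 4.

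Broad shared regions were spread thinly. The median distance from one to the next nearest was 320 kb, with quartiles at 125 and 848 kb, and 361 of 1684 had no other within 1000 kb. Another broad region lay within 50 kb of 184 (10.9%). Without E4 replicate 1 that share was 7.48% and the median distance 485 kb. The nearest shared region of any width was as far from a broad region, at a median of 63.0 kb, as from a narrower one, at 58.6 kb. It was itself broad for 18.4% of the broad and 18.2% of the narrower regions, both close to the 18.6% of all shared regions. Within 50 kb of a broad region lay a mean of 10.2 other merged regions, against 9.01 for a narrower one.

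The 184 close neighbours formed 84 groups in which each region lay within 50 kb of the next, 75 of them pairs and 5 of them triplets. The largest group held 6 broad regions between chr13:23621801 and chr13:23714781, a span of 93.0 kb. They were 2222 to 2690 bp wide, and their mean percentiles ran from 70.4 to 96.2. The highest of the 6, chr13:23653206-23655675, had percentiles of 98.7, 99.2, 97.8 and 98.3 in E0, 98.4, 98.1, 96.1 and 95.4 in E1, and 99.5, 97.4, 94.1 and 80.8 in E4. A group of 5 spanned 51.5 kb between chr3:96022894 and chr3:96074403, with mean percentiles of 83.5 to 93.4. A further triplet, chr13:23830018 to chr13:23856083, lay on the same chromosome as the group of 6, with mean percentiles of 92.3 to 93.8.

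Some neighbours were nearly joined. The closest pair, chr1:66367074-66369602 and chr1:66369838-66371953, was 235 bp apart. The members of this pair had mean percentiles of 67.8 and 49.0. The next pairs were 477 bp apart at chr13:21258573-21262428 and chr13:21262906-21265599, and 545 bp apart at chr11:48665726-48667829 and chr11:48668375-48670757. Gaps of 1788 bp at chr3:107998086-108001365 and chr3:108003154-108005347 and of 2299 bp at chr6:128787554-128789933 and chr6:128792233-128794892 followed. In 4 of these 5 pairs, the partners differed in mean percentile by more than 10 points, up to 60.9 against 28.4 in the pair of chromosome 3.

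The share of shared regions that were broad differed between chromosomes. It was highest on chromosome 3, at 24.5% (144 of 588, 95% Wilson interval 21.2% to 28.1%), followed by chromosomes 1 (22.8%) and 10 (22.7%). It was lowest on chromosome 7, at 7.65% (28 of 366, interval 5.35% to 10.8%), then on chromosomes 9 (12.3%) and 19 (14.7%). The intervals cover counting error only and treat regions as independent. Per Mb, broad regions ran from 0.985 on chromosome 10 to 0.184 on chromosome 7. Chromosome 7 was also lowest, and chromosome 3 highest, without E4 replicate 1 (6.04% and 17.3%, against 13.4% over all chromosomes) and in lists of equal length (7.87% and 26.1%, against 19.9%).

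**Figure D4:**
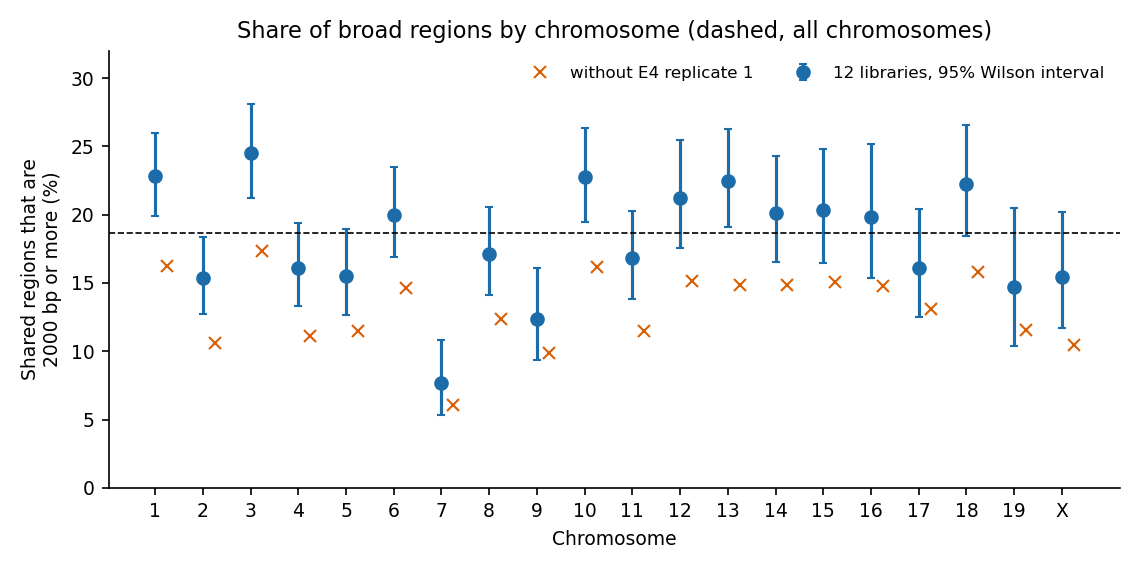
Share of the shared regions on each chromosome that are 2000 bp wide or more (y axis, %), with 95% Wilson intervals (blue) and, as crosses, the same over 11 libraries without E4 replicate 1; the dashed line is 18.6%, the share over all chromosomes. Chromosome 7 is lowest with and without that library, at 7.65% and 6.04%.

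To compare the groups, the highest peak score of each shared region was ranked among the 9037 shared regions within each library, which gives every library the same set to rank. The position so obtained runs from 0 (lowest) to 100 (highest). The broad regions had a median position of 65.07, 63.32, 64.99 and 65.89 in E0, 59.7, 58.8, 59.3 and 60.4 in E1, and 60.7, 60.7, 62.6 and 63.1 in E4. Every E0 library thus lay above every E1 and E4 library in this median. The spread of a single region within a group was larger, with a median SD of 9.52, 9.94 and 14.8 points in E0, E1 and E4. For the test, positions were turned into quantiles of the standard normal distribution, called normal scores here, and fitted with limma over all 9037 regions and 12 libraries. A change below means a Benjamini-Hochberg adjusted p under 0.05 over those 9037 regions, and errors of differences are standard errors.

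From E0 to E1, the score position rose in 12 and fell in 8 of the 1684 broad regions, 0.713% and 0.475%. Among all 9037 shared regions the background was 3.64% higher and 0.653% lower. The median difference in normal score was -0.12 over the broad and -0.06 over all shared regions. With the replicate number as a block in the fit, 18 broad regions rose and 20 fell. Other settings moved the counts further: with array weights 26 rose and 47 fell, in lists of equal length 4 rose and 4 fell, and with list percentiles on the logit scale 2 rose and 0 fell. The count of 20 dropped to 11 without E0 replicate 1, 2 or 3 or E1 replicate 1, to 8 without E0 replicate 4 and to 10 without E1 replicate 3. In all 20 the direction was the same within replicates 1 and 2 as within replicates 3 and 4, and in 18 of them the groups did not overlap. The regions were picked by the test on these same libraries. Shared direction and lack of overlap are therefore no separate support, here or for the calls in the comparisons below.

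The largest rise was at chr12:56085354-56087720, 2367 bp. Its score position was 2.8, 5.4, 0.8 and 7.0 in E0, 73.6, 72.1, 71.0 and 38.6 in E1, and 54.2, 18.6, 0.6 and 30.9 in E4. It thus passed from the bottom of the shared regions in all E0 libraries to the upper part in 3 of 4 E1 libraries, a difference of 2.22 ± 0.43 in normal score (limma, adjusted p = 0.0052). The region rose under each omission of a library.

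At chr8:66682607-66685870, 3264 bp, the position was 2.2, 19.3, 11.2 and 1.3 in E0, 57.4, 34.3, 64.6 and 49.5 in E1, and 79.1, 72.6, 50.4 and 56.7 in E4. Both E1 and E4 lay above E0 without overlap. The difference from E0, whose libraries both comparisons share, was 1.62 ± 0.33 in E1 (limma, adjusted p = 0.0072) and 1.98 ± 0.33 in E4 (limma, adjusted p = 0.0056). Both calls held under each omission of a library.

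The other large rises in E1 started from different levels. At chr13:30877318-30880280 the position went from 70.5, 31.8, 59.5 and 41.6 in E0 to 88.6, 96.3, 98.0 and 94.8 in E1, a difference of 1.64 ± 0.35 (limma, adjusted p = 0.011). At chr8:14992713-14995381 it went from 0.4, 2.9, 4.4 and 0.2 to 13.6, 32.3, 26.4 and 27.9, so that the region stayed low among the shared regions after a difference of 1.59 ± 0.36 (limma, adjusted p = 0.015). This call was lost on leaving out E0 replicate 1 or 4, at adjusted p of up to 0.060. At chr2:118488474-118490667 it went from 10.5, 7.6, 7.1 and 8.8 to 76.0, 47.6, 48.6 and 43.8 (1.49 ± 0.30, limma, adjusted p = 0.0062).

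The falls from E0 to E1 were less stable. The largest, at chr4:68566575-68569839, had positions of 72.5, 86.6, 97.3 and 95.8 in E0 and of 1.3, 1.9, 61.3 and 78.4 in E1, where replicates 1 and 2 lay far below replicates 3 and 4 and the groups overlapped. Its difference was -2.15 ± 0.55 (limma, adjusted p = 0.031), and in the same region the peaks of E1 replicates 1 and 2 were the longest, 2727 and 2744 bp against 383 to 1298 bp in the other 10 libraries. The call was lost on leaving out E0 replicates 2, 3 and 4 and E1 replicates 1 and 2, each alone, at adjusted p of up to 0.11.

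The next falls were at chr2:52716290-52718370 (-1.43 ± 0.40), chr10:66558441-66560890 (-1.36 ± 0.32), chr5:34338091-34340675 (-1.22 ± 0.33) and chr10:24918591-24920772 (-1.19 ± 0.29). At chr10:66558441-66560890 the position was 75.2, 78.3, 66.2 and 87.4 in E0, 21.61, 19.99, 15.29 and 59.03 in E1, and 39.5, 64.9, 77.9 and 69.0 in E4. The E1 values all lay below those of E0, while E4 overlapped E0. Each of these 4 calls (limma, adjusted p of 0.020 to 0.048) was lost under the omission of at least 5 of the 12 libraries, among them E0 replicates 2 and 4 for all of them.

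From E0 to E4, the score position rose in 4 and fell in 2 broad regions, 0.238% and 0.119%. The background among all shared regions was 1.37% higher and 0.111% lower. The rises were chr8:66682607-66685870, given above, and 3 others. With the replicate number as a block the counts were 6 and 6, and without E4 replicate 1 they were 7 and 8. In lists of equal length 1 rose and 0 fell, and on the logit scale of list percentiles 0 were called. The 6 regions kept their direction within replicates 1 and 2 and within replicates 3 and 4, and their groups did not overlap.

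At chr15:12558933-12561891, 2959 bp, the position was 2.6, 14.2, 9.1 and 12.4 in E0, 11.1, 15.3, 36.7 and 37.3 in E1, and 48.5, 67.1, 88.1 and 53.1 in E4. E4 lay above both other groups without overlap, and its difference from E0 was 1.79 ± 0.33 (limma, adjusted p = 0.0097). At chr13:103533976-103536547, 2572 bp, it was 2.9, 10.3, 7.1 and 4.1 in E0, 10.6, 15.8, 39.3 and 65.6 in E1, and 83.0, 34.6, 67.6 and 51.3 in E4 (1.85 ± 0.37, limma, adjusted p = 0.016). Without E0 replicate 1 the adjusted p of the latter was 0.062.

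The remaining rise was at chr18:52760052-52762126, 2075 bp, with positions of 0.5, 2.3, 5.0 and 3.6 in E0, 17.3, 11.7, 24.5 and 34.1 in E1, and 28.0, 28.4, 62.0 and 49.0 in E4 (1.79 ± 0.30, limma, adjusted p = 0.0064). Its difference from the same E0 libraries was 1.198 ± 0.303 in E1 (limma, adjusted p = 0.030).

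The 2 falls from E0 to E4 were shallower. At chr10:115909503-115912571 the position was 59.7, 59.6, 55.5 and 68.1 in E0, 30.1, 38.7, 53.3 and 42.6 in E1, and 15.5, 27.7, 23.5 and 17.3 in E4 (-1.09 ± 0.25, limma, adjusted p = 0.033). At chr1:97563300-97565342 it was 88.5, 74.3, 88.1 and 86.0 in E0, 51.3, 54.5, 60.3 and 60.9 in E1, and 52.3, 39.7, 62.1 and 44.3 in E4 (-1.04 ± 0.25, limma, adjusted p = 0.048). The E1 values of both lay below all 4 E0 values. The first call was lost under 6 of the 12 omissions, each E0 library and E4 replicates 1 and 4, and the second under 11, all but that of E4 replicate 3.

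From E1 to E4, 0 broad regions rose and 1 fell (0.0594%) in score position. Among all shared regions 1 was called in each direction (0.0111%), and the 1 that fell was this broad region. At an unadjusted p under 0.05, 129 of the 1684 (7.66%) differed, against 10.3% of all shared regions. The region that fell, chr15:43699462-43702012, had positions of 28.8, 46.7, 48.4 and 56.9 in E0, 77.3, 77.4, 66.3 and 87.4 in E1, and 17.2, 20.4, 22.9 and 6.6 in E4 (-1.77 ± 0.28, limma, adjusted p = 0.035). E1 lay above and E4 below every E0 library. The call was lost under 10 of the 12 omissions, all but those of E0 replicate 2 and E4 replicate 1, and without E4 replicate 1 there were 10 calls in all. With array weights, on the logit scale of list percentiles and with list length as a covariate there were 0.

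**Figure D5:**
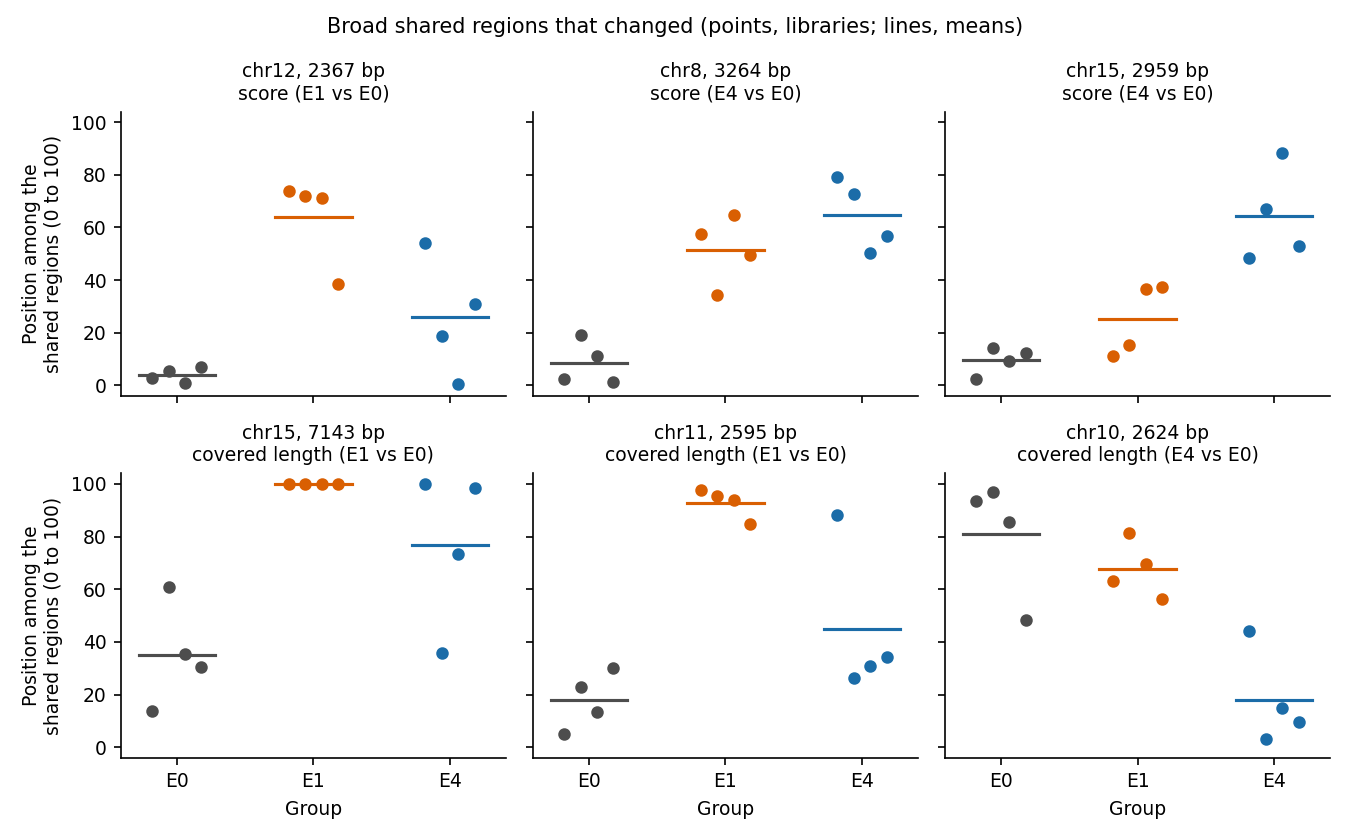
Position among the 9037 shared regions (y axis, 0 lowest to 100 highest) of 6 broad regions that changed, by group (x axis); each point is a library and each line a group mean, with score positions in the upper row and covered length in the lower row, and the comparison tested in each title. Groups compared do not overlap in any of the 6 panels, whose regions were picked by the test on these same libraries. E4 replicate 1, the leftmost E4 point, is the highest E4 library in 5 of them.

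The length under peaks within a region was ranked and tested in the same way. The selection by merged width used this measure in part, since merged width is the union of the peaks of all libraries. Long peaks in 1 group alone can carry a region past the width threshold. The tests of covered length are therefore not independent of the selection. From E0 to E1, the covered length rose in 9 broad regions (0.534%) and fell in 0. The background among all shared regions was 0.509% higher and 0.0443% lower. At an unadjusted p under 0.05, 161 broad regions (9.56%) differed, against 9.42% of all shared regions. The median difference in normal score was -0.001 over the broad and -0.03 over all shared regions. In lists of equal length, 0 broad regions were called in covered length in any of the 3 comparisons of groups, those given below included. With array weights 40 rose and 8 fell from E0 to E1, and with the replicate number as a block 11 rose and 1 fell. The count was 5 without E1 replicate 1 or 2, 17 without E4 replicate 1 and 14 without E4 replicate 3. Groups did not overlap in any of the 9.

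By far the largest difference was at chr15:74497730-74504872, 7143 bp, a region with a core of 336 bp. Peaks there covered 507, 1210, 446 and 491 bp in E0, 5725, 5800, 5257 and 4405 bp in E1, and 5394, 441, 518 and 1338 bp in E4. Its position in covered length was 13.6, 60.8, 35.5 and 30.3 in E0 and 99.96 or 99.97 in each of the 4 E1 libraries, a difference of 3.83 ± 0.51 in normal score (limma, adjusted p = 0.0030). In E4 the positions were 99.9, 35.7, 73.4 and 98.6, so that replicates 1 and 4 lay near the top and replicates 2 and 3 did not. Only the E1 libraries and E4 replicate 1 covered 2000 bp or more here. The long E1 peaks thus helped to select the region by width, and the difference is not independent of that selection. The rise from E0 to E1 held under each omission of a library. The score did not rise with it: the score percentile was 80.5, 85.0, 85.3 and 80.1 in E0 and 69.0, 66.2, 82.8 and 78.7 in E1, and the score position differed by -0.58 ± 0.47 (limma, adjusted p = 0.69).

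A further 4 regions made up the largest rises in covered length. In each, E1 replicates 1 and 2 covered 2000 bp or more and no E0 library did, so the same limit applies. At chr11:76342678-76345272 peaks covered 392, 749, 317 and 490 bp in E0, 2569, 2350, 1459 and 1013 bp in E1, and 2139, 387, 297 and 369 bp in E4 (2.56 ± 0.39 from E0 to E1, limma, adjusted p = 0.0045). At chr12:118391720-118394465 they covered 614, 887, 208 and 319 bp in E0 and 2206, 2736, 1406 and 771 bp in E1 (2.56 ± 0.49, limma, adjusted p = 0.016). The latter call was lost on leaving out E0 replicates 3 and 4 and E1 replicates 1 and 2, each alone, at adjusted p of up to 0.076. In both regions E1 lay above E0 in position without overlap.

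At chr11:74989578-74992898 peaks covered 628, 931, 303 and 417 bp in E0, 3245, 3014, 1059 and 891 bp in E1, and 1326, 265, 263 and 352 bp in E4 (2.32 ± 0.40 from E0 to E1, limma, adjusted p = 0.0081). At chr15:12558933-12561891, the region whose score rose in E4, they covered 464, 719, 384 and 415 bp in E0, 2318, 2262, 1282 and 647 bp in E1, and 1218, 674, 399 and 376 bp in E4 (2.12 ± 0.35, limma, adjusted p = 0.0063). In that region the covered length was greatest in E1 and the score position greatest in E4.

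The calls in score and in covered length were mostly of different regions. Of the 12 regions with a higher score and the 9 with a greater covered length in E1 than in E0, 1 was in both lists, chr2:118488474-118490667. Its peaks covered 716, 1236, 433 and 502 bp in E0, 2031, 2137, 1320 and 1443 bp in E1, and 1939, 1051, 481 and 578 bp in E4. Its covered length rose by 1.78 ± 0.30 in normal score (limma, adjusted p = 0.0077) beside the score, which rose as given above. The score call held under each omission of a library. In 11 of the 12 regions with a higher score the difference in covered length was above 0 as well, and in 5 of the 9 with a greater covered length the difference in score was above 0. At chr12:56085354-56087720, the largest rise in score, the covered length differed by 2.01 ± 0.49 (limma, adjusted p = 0.072). Over all 1684 broad regions, the difference from E0 to E1 was above 0 in 37.2% for the score and in 49.9% for the covered length.

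From E0 to E4, the covered length rose in 2 and fell in 2 broad regions, 0.119% each, against a background of 0.188% and 0.0775%. Without E4 replicate 1 the counts were 2 and 41. Other omissions left 0 to 4 calls: 0 without E0 replicate 1 or E4 replicate 3 or 4, 1 without E0 replicate 2, 3 or 4 or E1 replicate 1, and 2 without E1 replicate 3 or E4 replicate 2. These counts are totals over the broad regions and can include others than the 4. Of the 4 calls themselves, 0 held under each omission of a library. All 4 were still called without E4 replicate 1, and 0 without E0 replicate 2. Groups did not overlap in any of the 4. The rises were chr3:87349527-87351644 (1.52 ± 0.31, limma, adjusted p = 0.039), with 546, 785, 623 and 549 bp in E0 and 2118, 892, 743 and 743 bp in E4, and chr1:62953648-62956177 (1.47 ± 0.29, limma, adjusted p = 0.031). The former call was lost under 9 single omissions and the latter under 7, at adjusted p of up to 0.18 and 0.12 (limma).

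The falls were chr10:106069115-106071738 and chr6:63205773-63208360. At the former, peaks covered 1826, 2515, 914 and 616 bp in E0, 1148, 1606, 876 and 663 bp in E1, and 1184, 231, 239 and 241 bp in E4 (-2.18 ± 0.40, limma, adjusted p = 0.020). At the latter, they covered 2016, 2493, 1932 and 1945 bp in E0, 1734, 1914, 1304 and 972 bp in E1, and 2556, 314, 434 and 276 bp in E4 (-2.18 ± 0.44, limma, adjusted p = 0.040). In the latter region E4 replicate 1 had the longest cover of all 12 libraries, yet lay below all E0 libraries in position. The call at the former region was lost under 6 of the 12 omissions and that at the latter under 10. Their adjusted p then reached up to 0.11 and 0.13 (limma).

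From E1 to E4, 0 broad regions rose and 2 fell (0.119%) in covered length, against a background of 0.0221% and 0.0332%. The 3 falls of that background include these 2. Both fell at an adjusted p of 0.047 (limma). They were chr2:94080461-94084783 (-2.87 ± 0.53), with 932, 1273, 744 and 545 bp in E0, 3521, 4269, 2393 and 1545 bp in E1, and 2968, 413, 187 and 246 bp in E4, and chr11:74989578-74992898 (-2.21 ± 0.40). Groups did not overlap in position. Neither was called without any 1 of E0 replicates 1, 2 and 4, E1 replicates 1 and 2 and E4 replicates 2, 3 and 4, and the former also not without E1 replicate 3 or 4. Without E4 replicate 1, 46 broad regions fell and 0 rose.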

How the data were processed

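Open chromatin was assayed by ATAC-seq in 12 libraries, 4 per group, with groups taken from the sample titles. The submitters' processing notes name Bowtie2 as a tool and mm9 as the build. Not stated in the labels are the peak caller and its threshold, any shift for transposase cutting, and how duplicates and repeated sequence were handled. The authors deposited 1 peak list per library, with a score per peak of unstated scale, 50.0 or 50.01 at the least. Unshifted reads would displace peak edges slightly, and a longer list gives wider merged regions. Depth is unknown, so no interval is given for a peak.

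Peaks on chromosomes 1 to 19 and X were merged in Python 3.11.15 where they shared 1 bp, which was checked against bedtools 2.31.1. Peaks on chromosome Y (9 to 43 per list) were left out. Scores and covered lengths were ranked among the shared regions of each library, turned into normal scores and fitted with limma 3.58.1 (R 4.3.3) over all 12 libraries, with Benjamini-Hochberg adjustment over all shared regions. The scripts were tested on simulated data. Each library came from its own mouse, per the labels, so p-values measure the spread between these mice and their libraries. The main fit takes the libraries as independent, although E0 and E1 libraries with the same replicate number deviated together, as given below.

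The regions named are the 5 widest, the 3 on either side of the width threshold, the 5 highest, 5 lowest and 5 most variable in percentile, the 5 closest pairs, the largest group within 50 kb, and up to 5 changed regions per direction and comparison. The members, lists and tests were chosen with earlier results of these data known. E0 and E1 libraries with the same replicate number deviated together (correlations over the 9037 shared regions of 0.267, 0.398, 0.239 and 0.282 in score and 0.137, 0.304, 0.129 and 0.151 in covered length), so the blocked count is given beside that comparison. In score, only 4 of the 8 libraries correlated best with their own number: correlations were 0.222 to 0.398 within replicates 1 and 2 and within replicates 3 and 4, and -0.370 to -0.212 across. The labels name neither a pairing nor a batch. The gene lists and cell type markers laid down for use with an mm9 annotation were not used.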

Additional observations from a re-analysis of the deposited data

Results flagged for a closer look

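Within a group of 4 libraries, a highest or lowest value was singled out where its gap to the nearest other library was too large a part of the group's range (Dixon's test at its 95% critical value). Of 210 groups checked, 24 were singled out. Chance flags about 1 in 20 groups that are picked without regard to their values. The named regions were chosen from these same values, some of them for a wide range, so the count cannot be set against that rate. No explanation was tested for any of them.

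E4 replicate 1 stood apart in measures over all broad shared regions. Its peaks covered a median of 96.7% of the merged width, against 22.7% to 34.8% in the other E4 libraries. It had 1290 broad regions with a single peak of 2000 bp or more, against 5 to 13.

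The same library was singled out for the lowest score position within E4 at 5 named regions. Its position was 0.0609 at chr9:2999954-3009030 (others 99.8 to 99.9), 0.990 at chr12:15817563-15824774 (77.2 to 85.7) and 0.00553 at chr6:47687091-47691350 (78.6 to 91.9). At these 3 regions its peaks were the longest of all 12 libraries. At the start of the group of 6 on chromosome 13 it was 33.7 at chr13:23621801-23624022 (69.8 to 73.4) and 50.7 at chr13:23634714-23637403 (85.6 to 92.5).

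E4 replicate 3, with the shortest list, was singled out as highest at 4 regions and as lowest at 1. Its position was 37.4 at chr1:140737027-140740531 (others 0.127 to 3.61), 34.8 at chr1:66369838-66371953 (1.55 to 3.88), 24.9 at chr12:118391720-118394465 (5.03 to 6.87) and 37.1 at chr2:94080461-94084783 (3.45 to 8.68). It was 0.570 at chr5:20560075-20562712 (78.8 to 89.4). E4 replicate 2 was highest at chr14:71021957-71029978, at 58.0 (1.82 to 8.78), and lowest at chr11:23670024-23672024, at 86.8 (94.9 to 96.5).

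In E1, replicate 1 was singled out as highest at 3 regions: 9.41 at chr11:59988860-59991293 (others 0.559 to 1.27), 76.0 at chr2:118488474-118490667 (43.8 to 48.6) and 20.8 at chr11:74989578-74992898 (3.82 to 5.46). Replicate 3 was highest at chr13:23646329-23648551, at 24.3 (16.0 to 17.1), and at chr11:76342678-76345272, at 24.1 (15.6 to 17.0). Replicate 4 was lowest at chr12:56085354-56087720, at 38.6 (71.0 to 73.6), and highest at chr10:66558441-66560890, at 59.0 (15.3 to 21.6).

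In E0, replicate 2 was highest at chr18:64424287-64426741, at 57.8 (others 19.3 to 23.0), and lowest at chr3:107998086-108001365, at 1.62 (13.9 to 15.4). Replicate 4 was highest at chr13:21262906-21265599, at 29.2 (0.448 to 2.16).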

How the results depend on the processing

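The number of broad shared regions, 1684, was 3856, 749 and 369 at a minimum width of 1500, 2500 and 3000 bp, 966 with peaks of score 100 or more, and 19 with a requirement that every library cover 50% or more of the region. At those 3 widths, in lists of equal length and at score 100, the share with another within 50 kb (10.9%) was 23.3%, 6.68%, 4.34%, 8.27% and 7.87%. The median distance (320 kb) was 128, 1130, 2061, 406 and 518 kb, and the median core share (15.3%) 17.5%, 12.4%, 10.3%, 17.6% and 19.2%. Windows of 20 and 100 kb gave shares of 5.29% and 20.96%. Leaving out each library in turn gave 1204 to 1922 regions, shares of 7.48% to 12.2%, distances of 279 to 485 kb and core shares of 15.3% to 17.6%.

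Counts of changed broad regions in score position were 20 (E1 against E0), 6 (E4 against E0) and 1 (E4 against E1). Leaving out each library gave 8 to 29, 4 to 15 and 0 to 10. The replicate block gave 38, 12 and 1, limma array weights 73, 5 and 0, percentiles on the logit scale 2, 0 and 0, lists of equal length 8, 1 and 1, and list length as a covariate, chosen after seeing the data, 33, 8 and 0. The sum and the length-weighted mean of peak scores gave 0 and 0 for E4 against E1.

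Counts in covered length were 9, 4 and 2 in the same order. Leaving out each library gave 5 to 17, 0 to 43 and 0 to 46. The replicate block gave 12, 5 and 2, array weights 48, 5 and 2, lists of equal length 0, 0 and 0, list length as a covariate 15, 2 and 0, and log2 covered length 13, 7 and 2. The cause was not tested. Of the named changes, none reversed under these settings, and all 28 kept their call with the block, although not every E4 library deviated together with its number in the other groups (score correlations, replicates 1 to 4: 0.152, 0.0187, 0.171 and 0.108 with E0, and 0.229, 0.0573, 0.137 and 0.0881 with E1). Over single omissions, 222 of the checks kept the call and 114 lost it. With list percentiles on the logit scale, 1 named score change kept its call and 16 lost it. In lists of equal length, only a part of the 28 named changes could be checked. Of these, 4 kept the call and 4 lost it, and the rest remain unchecked in that setting. Unknown depth limits every comparison, and without an mm9 annotation no region was tied to a gene.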
